A study of Mus musculus with 11 samples.

Results

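The interferon-stimulated genes described here are 43 of the 14739 genes in a table of RNA-seq values from sorted mouse microglia. They were chosen by symbol from a list of 44 genes known to be induced by type I interferon. The rule itself uses no measured value, but the list was drawn up with earlier results of these data known. The remaining gene of the list, Ifi44, was not analysed here. The study asked how microglia change when mice lose 1 copy of Csf1r, 1 copy of Csf2, or 1 copy of each. Microglia need signalling through CSF1R, the product of Csf1r, to survive, and Csf2 encodes the growth factor GM-CSF, which signals through a separate receptor.

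Every library was made from total RNA of Tmem119+ cells sorted from the brains of C57BL/6 mice. The WT group held 3 wild type libraries, all at 21 months of age. The Csf1r_het group (Csf1r+/-) held 3 libraries, at 20, 24 and 21 months for replicates 1, 2 and 3. The Csf2het group (Csf2+/-) held 3 libraries, all at 21 months. The Dhet group (Csf1r+/-; Csf2+/-) held 2 libraries, at 21 months for replicate 1 and 24 months for replicate 2. The labels name no Cre driver or cell type in which an allele was lost, and they give no sex. They do not say that each library came from a separate mouse, so p-values here measure only the spread between these samples.

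Type I interferons bind a receptor made of IFNAR1 and IFNAR2, whose kinases JAK1 and TYK2 phosphorylate STAT2, among other factors. STAT2 joins IRF9 in the factor ISGF3, which turns on antiviral genes through a promoter element called the interferon-stimulated response element. IRF7, itself a product of the response, raises further interferon production. Microglia express many of these genes at a low level in the healthy brain and more strongly with infection, injury and age.

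The promoters of the members were searched for that element, since it is the sequence that ISGF3 recognises. The letters searched were TTTCNNTTTC on either strand, in the 250 bases before each start site, with RefSeq sequence of the build GRCm38.p6. A window was at hand for 33 of the 43 members, and 14 of them (42.4%) held at least 1 match. Among tested genes with a window the share was 335 of 9431 (3.55%), and among all promoter windows it was 978 of 32851 (2.98%). A match is a run of letters and not a measured binding site.

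Of the 9 members that passed the test in the Csf2het group below, Oas1a and Gbp3 held a match to the element. Stretches around the matches are shown for these members, for Stat2 (the factor's own subunit), for Isg15 and Ifit3 (widely used reporters of the response), and for Bst2 and Cxcl10, which did not pass the test in any comparison. Capitals mark the matched letters, each run reads 5′ to 3′ along the gene's strand, and overlapping matches run together.
Oas1a, chr5:120907526-120907554, minus strand: ccttctcggGAAATGGAAACTGAAAatct
Gbp3, chr3:142559990-142560029, plus strand: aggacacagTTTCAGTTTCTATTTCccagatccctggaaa
Stat2, chr10:128270261-128270300, plus strand: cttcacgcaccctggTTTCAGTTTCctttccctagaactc
Isg15, chr4:156200860-156200899, minus strand: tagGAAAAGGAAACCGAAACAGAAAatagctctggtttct
Ifit3, chr19:34583392-34583431, plus strand: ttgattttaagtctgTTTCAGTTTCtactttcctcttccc
Bst2, chr8:71537572-71537611, minus strand: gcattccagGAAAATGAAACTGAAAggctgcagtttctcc
Cxcl10, chr5:92349078-92349117, minus strand: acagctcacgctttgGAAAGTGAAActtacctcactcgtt

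The matches lay 5, 30, 213, 57, 113, 115 and 204 bases before the start site in Oas1a, Gbp3, Stat2, Isg15, Ifit3, Bst2 and Cxcl10. The 40 bases around the match in Ifit3b were the same as those in Ifit3. Oas1a and Gbp3, which passed the test in Csf2het, and Bst2 and Cxcl10, which did not, all held a match to the element.

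Summed over the genes in the table, the libraries held between 21037819 and 53081638 reads. All 43 members passed the filter on low values (a mean of at least 10 normalized counts). Haemoglobin transcripts took from 16.1% of the normalized counts in WT replicate 1 to 58.8% in Csf1r_het replicate 2, which also had the largest share of genes at 0 (15.55%). Dhet replicate 2 stood apart in sex-linked transcripts, with 717 normalized counts of the Y-linked gene Ddx3y and 4.02 of Xist, against at most 16.3 and at least 3011 in the other libraries. WT replicate 2 had the highest summed monocyte markers and the lowest summed microglia markers. Csf1r, the targeted receptor gene, was at 41261 to 93319 in WT and 53873 to 66762 in Csf2het, and at 17017 to 40567 in Csf1r_het and 30254 to 40151 in Dhet. Its difference from WT did not pass the test in Csf1r_het (log2 fold change -1.29 ± 0.45 SE, limma adjusted p = 0.184), nor did that in Dhet (-0.84 ± 0.50, adjusted p = 0.589). Csf2 was not analysed here. Microglia markers were present in every library, among them P2ry12, and so were markers of blood cells, given below beside the results.

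Csf2het had the lowest group mean in 29 of the 43 members, a count that was not taken over all tested genes. Against WT, 9 of 43 members fell and none rose, at a limma adjusted p under 0.05 over all 13223 tested genes. Over all tested genes 2.84% fell by the same rule and 0.809% rose. The members that fell were Irf9, Irf7, Zbp1, Ifi204, Oas1a, Oasl2, Slfn2, Sp100 and Gbp3. By sign, 38 of the 43 members were below WT, against 51.1% of tested genes. The members' median log2 fold change was -1.27, against a median of -0.02 over all tested genes. All 3 Csf2het libraries lay below all 3 WT libraries in 19 members and above them in none, against 14.3% and 11% of tested genes. At an unadjusted p under 0.05, 22 members were lower and none higher, against 10.6% and 6.66%. The count of 9 was 5 without WT replicate 2, the library that stood apart in monocyte markers, 3 without WT replicate 1 or any 1 of the Csf2het libraries, and 12 without WT replicate 3. With mice of 21 months only, which leaves 1 library in Csf1r_het and 1 in Dhet, it was 4. Over all tested genes the number called also moved between these fits, as given in the closing sections. The members' counts were not set against it fit by fit. In bulk RNA a lower value can come from fewer cells of a type or from less RNA per cell, which cannot be told apart here. The summed monocyte markers of the same libraries were 108668 to 362873 normalized counts in WT and 17918 to 24923 in Csf2het, and their part in these counts was not tested.

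**Figure D1:**
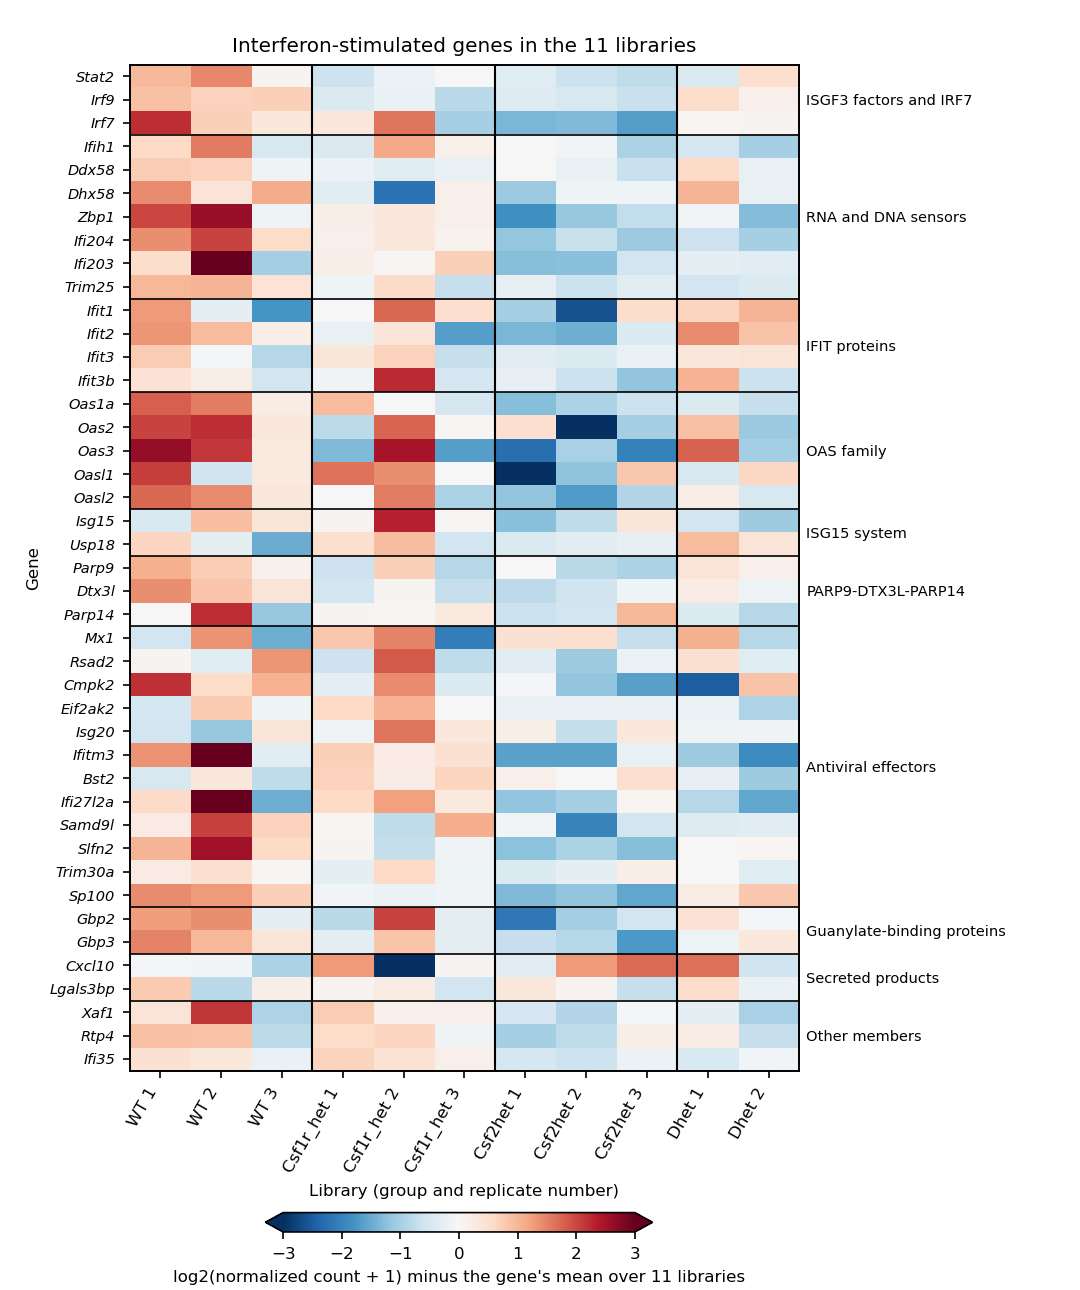
Heat map of the 43 interferon-stimulated genes (rows, in groups by role) in the 11 libraries (columns). Colour is log2(normalized count + 1) minus the gene's own mean over the libraries, with values past 3 in either direction shown in the end colours. The Csf2het columns are mostly blue, WT replicates 1 and 2 are mostly red, and single libraries stand out, such as WT replicate 2 in Ifitm3 and Csf1r_het replicate 2 in Isg15.

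The members' medians in Csf1r_het and Dhet lay between WT and Csf2het, while single members did not keep that order. Against WT, 1 of 43 members fell in Csf1r_het (Irf9), where 0.885% of tested genes fell. In Dhet 1 of 43 fell (Ifi204), where 0.499% of tested genes fell. No member rose in either comparison, by limma, by edgeR or by DESeq2, where 0.431% of tested genes rose in Csf1r_het and 0.0303% in Dhet by limma. At an unadjusted p under 0.05, 9 members were lower and 2 higher in Csf1r_het (9.83% and 6.35% of tested genes), and 6 were lower and none higher in Dhet (6.20% and 3.85%). All Csf1r_het libraries lay below all WT libraries in 8 members and above them in none, where 12.8% and 8.61% of tested genes did so. For Dhet these counts were 14 and 0, against 12.6% and 13.5%. In Csf1r_het the members had a median difference of -0.58 on the log2 scale and in Dhet of -0.62, where all tested genes had -0.12 and 0.02. WT held the highest group mean in 28 of the 43 members and Csf1r_het in 10, and Dhet the lowest in 10. The counts of group means were not taken over all tested genes. These 3 comparisons share the WT libraries, so their values are given side by side and not as separate support.

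**Figure D2:**
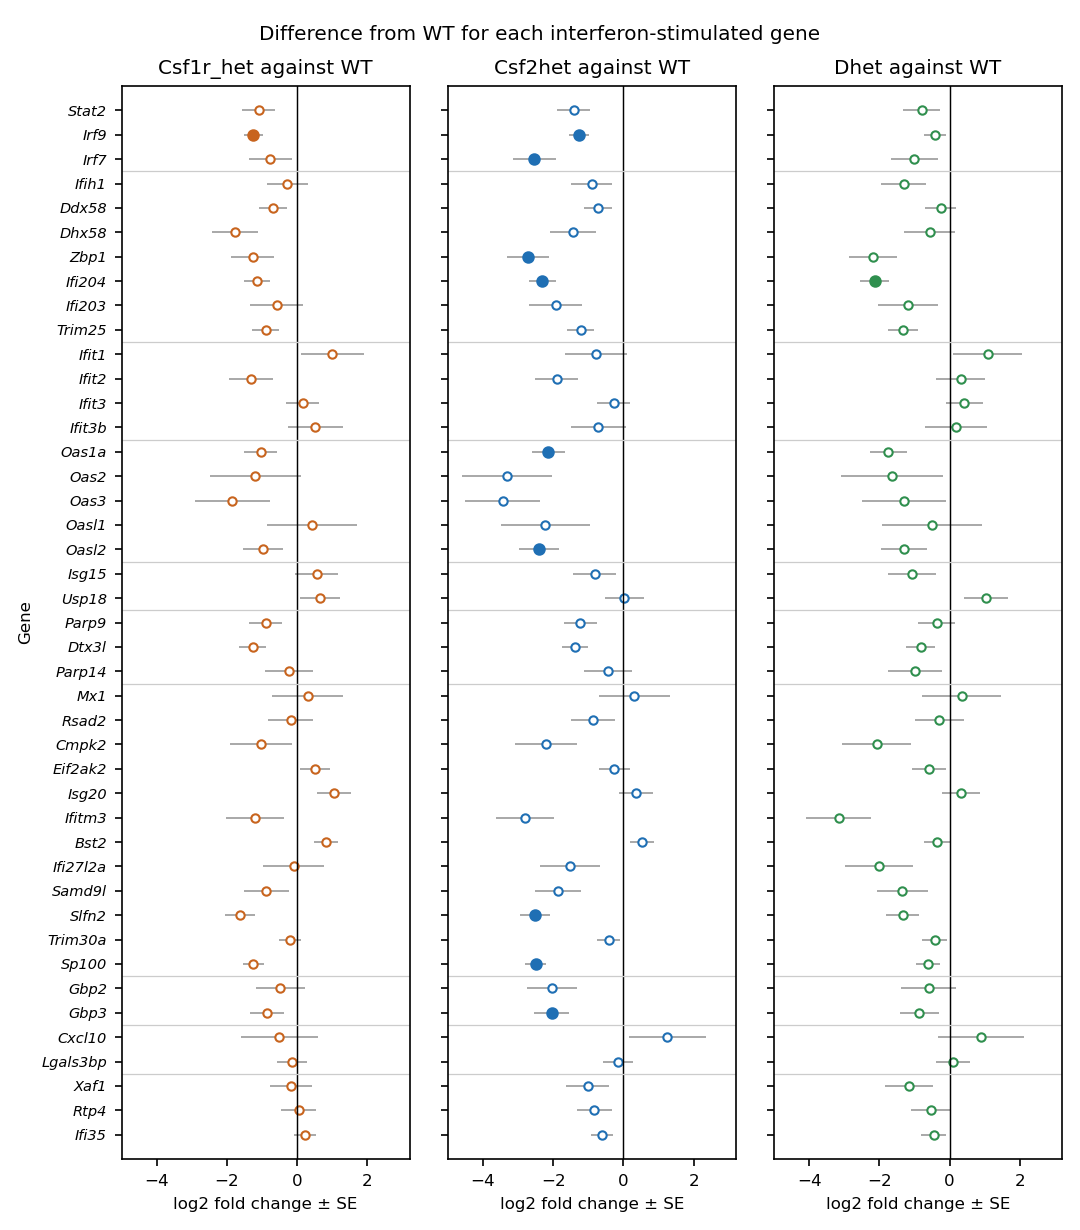
Log2 fold change from WT, on the log2(normalized count + 1) scale, for each of the 43 members (rows, in groups by role) in Csf1r_het, Csf2het and Dhet. Bars are the standard error, filled points passed the limma test at an adjusted p under 0.05, and open points did not. Points lie furthest to the left in Csf2het, where 9 are filled, against 1 in each of the other panels.

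Irf9, the DNA-binding subunit of ISGF3 (ENSMUSG00000002325.14, chr14:55603571-55610030, plus strand), was at 2508, 2227 and 2236 normalized counts in WT. It was at 1012, 1187 and 779 in Csf1r_het, 1057, 986 and 858 in Csf2het, and 1995 and 1536 in Dhet. Every single heterozygote library was below every WT and Dhet library, and the Dhet libraries were below WT. Irf9 fell in Csf1r_het (log2 fold change -1.25 ± 0.28 SE, limma adjusted p = 0.0493) and in Csf2het (-1.27 ± 0.28, limma adjusted p = 0.0252). In Dhet the difference was -0.41 ± 0.31 (limma adjusted p = 0.676). The call in Csf1r_het was close to the threshold: edgeR gave an adjusted p of 0.067, and it held in 1 of the 11 fits with a library left out, that without WT replicate 2. With each library centred on its own median, which removes the shift of -0.12 over all genes, it was -1.11 with a limma adjusted p of 0.0689. The Csf2het call was lost without WT replicate 1 (limma adjusted p = 0.109) or any 1 of the Csf2het libraries (0.0823 to 0.098).

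Irf7, the factor that amplifies interferon production (ENSMUSG00000025498.15, chr7:141262706-141266481, minus strand), was at 3685, 1288 and 975 normalized counts in WT and 998, 2412 and 394 in Csf1r_het. It was at 301, 313 and 251 in Csf2het and 824 and 837 in Dhet. The 3 Csf2het libraries were the lowest of all 11 and close to each other, while WT and Csf1r_het each spread widely and overlapped. Irf7 fell in Csf2het (-2.53 ± 0.60, limma adjusted p = 0.0357) and did not pass the test in Csf1r_het (-0.76 ± 0.60) or Dhet (-1.005 ± 0.67). Without WT replicate 1, the highest library, the Csf2het difference was -1.96 with a limma adjusted p of 0.166. The call held in 4 of the 11 fits with a library left out, those without WT replicate 2 or 3 or Csf1r_het replicate 2 or 3.

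Stat2, the ISGF3 subunit that IRF9 joins, was at 653, 907 and 355 normalized counts in WT and 218, 296 and 333 in Csf1r_het. It was at 259, 213 and 198 in Csf2het and 246 and 475 in Dhet. All 6 single heterozygote libraries were below all 3 WT libraries. The difference did not pass the test in Csf2het (-1.42 ± 0.47, limma adjusted p = 0.127) or Csf1r_het (-1.09 ± 0.47, limma adjusted p = 0.274).

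The list of 7 genes that sense foreign or misplaced RNA and DNA, of which Trim25 acts on a sensor and is not one itself, was wholly below WT by sign in each of the 3 heterozygote groups. Ifi204 and Zbp1 fell in Csf2het, and Ifi204 also fell in Dhet. Ifi204, an interferon-inducible DNA sensor of the PYHIN family (ENSMUSG00000073489.6, chr1:173747293-173766943, minus strand), was at 2271, 3546 and 1278 normalized counts in WT and 960, 1070 and 926 in Csf1r_het. It was at 384, 541 and 409 in Csf2het and 562 and 436 in Dhet. The groups stepped down without overlap from WT to Csf1r_het to Csf2het, and Dhet lay with Csf2het. The difference was -2.31 ± 0.38 in Csf2het (limma adjusted p = 0.00501) and -2.13 ± 0.42 in Dhet (limma adjusted p = 0.0441). The first held in all 11 fits with a library left out. The second held in 2 of them, those without WT replicate 3 or Csf1r_het replicate 2, and not in edgeR (adjusted p = 0.061), and without the Dhet library that stood apart it was -1.95 with a limma adjusted p of 0.138.

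Ifi204 has near copies beside it on chromosome 1: its transcript matched that of Ifi211 at 96.9% over 1363 bases, and part of Mndal at 95.7% over 776 bases, so reads could be split between them. Summed over Ifi204, Ifi211 and Mndal, the value was 4930 ± 3494 (SD, n = 3) in WT, 2407 ± 502 (n = 3) in Csf1r_het, 754 ± 196 (n = 3) in Csf2het and 1291 ± 75.6 (n = 2) in Dhet. Ifi211 also fell in Csf2het (-3.12 ± 0.74, limma adjusted p = 0.0345), and Mndal just missed the threshold (-2.31 ± 0.61, limma adjusted p = 0.0567). Ifi203, in the same cluster, was at 998, 6282 and 341 in WT and 286, 290 and 462 in Csf2het, so the WT range enclosed part of the Csf2het range.

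Zbp1, a sensor of Z-form nucleic acid that can start cell death (ENSMUSG00000027514.14, chr2:173206612-173218923, minus strand), was at 3443, 5271 and 772 normalized counts in WT and 985, 1077 and 950 in Csf1r_het. It was at 239, 392 and 516 in Csf2het and 810 and 346 in Dhet. WT spread more than any other group, and its lowest library was below all of Csf1r_het but above all of Csf2het. The difference was -2.72 ± 0.60 in Csf2het (limma adjusted p = 0.0266), -2.19 ± 0.67 in Dhet (0.272) and -1.27 ± 0.60 in Csf1r_het (0.321). The Csf2het call did not hold without WT replicate 1 (limma adjusted p = 0.123), WT replicate 2 (0.0649) or any 1 of the Csf2het libraries (0.0549 to 0.119).

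The cytosolic RNA helicases did not pass the test in any comparison. Ddx58 (RIG-I) was at 444 to 817 in WT and 305 to 493 in Csf2het, a difference of -0.72 ± 0.40. Ifih1 (MDA5) was at 272 to 1134 in WT and 198 to 382 in Csf2het (-0.90 ± 0.58). Dhx58 (LGP2), which tunes both helicases, was at 336 to 686 in WT, 54.8 to 287 in Csf1r_het and 120 to 236 in Csf2het, with no overlap between WT and either group, and its differences of -1.76 ± 0.66 and -1.43 ± 0.66 did not pass the test. Trim25, the ubiquitin ligase that activates RIG-I, was below WT by -1.21 ± 0.38 in Csf2het and -1.32 ± 0.43 in Dhet, and did not pass either (limma adjusted p = 0.109 and 0.302).

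Enzymes of the oligoadenylate synthetase family make the second messenger that activates the RNA-cutting enzyme RNase L, though not every protein of the family does so. All 5 members were below WT by more than 2 on the log2 scale in Csf2het, and Oas1a and Oasl2 passed the test. Oas1a (ENSMUSG00000052776.10, chr5:120896256-120907521, minus strand) was at 2576, 2154 and 866 normalized counts in WT and 1440, 751 and 520 in Csf1r_het. It was at 304, 384 and 477 in Csf2het and 546 and 459 in Dhet. Neither Csf2het nor Dhet overlapped WT. The difference was -2.14 ± 0.47 in Csf2het (limma adjusted p = 0.0257) and -1.75 ± 0.53 in Dhet (0.252), and the Csf2het call did not hold without WT replicate 1 (0.129), WT replicate 2 (0.0582) or any 1 of the Csf2het libraries (0.0582 to 0.111).

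Oas1a shares 97.6% of 1861 transcript bases with Oas1g, and reads may be split between the pair. Oas1g alone was at 81.5 to 436 in WT and 61.3 to 162 in Csf2het, and did not pass the test (-1.22 ± 1.08, limma adjusted p = 0.626). Their sum was 2179 ± 1088 (SD, n = 3) in WT and 502 ± 70.5 (n = 3) in Csf2het.

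Oasl2 (ENSMUSG00000029561.17, chr5:114896936-114912234, plus strand) was at 2149, 1731 and 817 normalized counts in WT and 642, 1876 and 338 in Csf1r_het. It was at 285, 200.6 and 356 in Csf2het and 751 and 463 in Dhet. Csf1r_het overlapped WT through replicate 2, while Csf2het and Dhet did not overlap it. The Csf2het difference was -2.40 ± 0.58 (limma adjusted p = 0.0368), and it held in 3 of the 11 fits with a library left out, those without WT replicate 3 or Csf1r_het replicate 2 or 3.

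Oas3, on the same stretch of chromosome 5 as Oas1a and Oas2, had the lowest fold change of any member in Csf2het and did not pass the test. It was at 1369, 956 and 269 in WT, 87.1, 1228 and 69.5 in Csf1r_het, 44.9, 113 and 53.1 in Csf2het, and 749 and 109 in Dhet. In Csf1r_het and Dhet a single library lay within the WT range while the others were below it. The Csf2het difference was -3.43 ± 1.07 (limma adjusted p = 0.104). Oas2 and Oasl1 were thinly covered, with 2 and 1 reads in their lowest libraries, and their differences of -3.32 ± 1.29 and -2.23 ± 1.27 carried errors too wide for a call.

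The IFIT genes encode proteins that bind viral RNA and block its translation. None of the 4 passed the test in any comparison with WT. By sign 4 of 4 were below WT in Csf2het, with a median of -0.74 on the log2 scale. In Csf1r_het 1 of 4 was below WT, and in Dhet 0 of 4, where the median was 0.37. Ifit2 was at 244 to 534 in WT, 67.4 to 279 in Csf1r_het, 76.6 to 159 in Csf2het, and 388 and 571 in Dhet, and the Dhet libraries lay above every single heterozygote library. The difference between Dhet and Csf2het was 2.22 ± 0.69 (limma adjusted p = 0.426). Ifit3 and Ifit3b share 97.8% of 1700 transcript bases, and their sum was 732 ± 361 (SD, n = 3) in WT, 939 ± 572 (n = 3) in Csf1r_het, 525 ± 27.5 (n = 3) in Csf2het and 894 ± 131 (n = 2) in Dhet, with wide overlap of WT and Csf1r_het.

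Isg15 encodes a ubiquitin-like protein, and Usp18 the protease that removes it and also damps the receptor. Isg15 was at 990, 2564 and 1738 in WT, 1443, 6884 and 1399 in Csf1r_het, 574, 796 and 1758 in Csf2het, and 929 and 650 in Dhet. A single library, Csf1r_het replicate 2, was 2.68 times as high as the next, and the Csf2het range overlapped WT. Usp18 was at 129 to 565 in WT and 265 to 302 in Csf2het, a difference of 0.03 ± 0.56, so its change can be bounded only loosely. Neither gene passed the test in any comparison.

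Parp9, Dtx3l and Parp14 lie beside each other on chromosome 16 and encode ADP-ribosyltransferases and a partner ubiquitin ligase. Dtx3l was at 871 to 1772 in WT, 413 to 707 in Csf1r_het, 389 to 612 in Csf2het, and 606 and 790 in Dhet. No heterozygote library reached the lowest WT library, and the differences of -1.27 ± 0.38 in Csf1r_het and -1.37 ± 0.38 in Csf2het did not pass the test (limma adjusted p = 0.126 and 0.0672). Parp9 differed from WT by -1.23 ± 0.47 in Csf2het. It shares 458 exon bases with Dtx3l on the opposite strand, so reads there cannot be assigned to either where strand is not recorded. Parp14 differed by -0.43 ± 0.68.

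Among the 12 antiviral effectors, 2 fell in Csf2het (Sp100 and Slfn2) and none passed the test in Csf1r_het or Dhet. Sp100, a component of PML nuclear bodies that restrains viral genomes (ENSMUSG00000026222.16, chr1:85649988-85709998, plus strand), was at 3290, 2984 and 2044 normalized counts in WT and 1175, 1096 and 1150 in Csf1r_het. It was at 493, 544 and 418 in Csf2het and 1457 and 2159 in Dhet. Csf1r_het lay clear of WT and Csf2het lay clear of Csf1r_het, whereas Dhet reached into the WT range. Sp100 had the lowest p of any member in Csf2het (-2.49 ± 0.30, limma adjusted p = 0.000776), and the call held in all 21 alternative fits. In Csf1r_het it just missed the threshold (-1.25 ± 0.30, limma adjusted p = 0.0595). Sp100 has pseudogene copies in the table, Gm2619 and Gm7582, and with them the sum was 2820 ± 664 (SD, n = 3) in WT and 493 ± 57.1 (n = 3) in Csf2het, little different from Sp100 alone.

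Slfn2, a Schlafen protein that keeps lymphocytes and myeloid cells quiescent (ENSMUSG00000072620.3, chr11:83065112-83070678, plus strand), was at 7143, 20473 and 5339 normalized counts in WT and 3744, 2149 and 3306 in Csf1r_het. It was at 1511, 1849 and 1459 in Csf2het and 3576 and 3711 in Dhet. Every heterozygote library was below every WT library, the Csf2het libraries were the lowest, and WT replicate 2 was far above the rest. The difference was -2.53 ± 0.43 in Csf2het (limma adjusted p = 0.00596), -1.62 ± 0.43 in Csf1r_het (0.087) and -1.34 ± 0.48 in Dhet (0.355). The Csf2het call held in all 21 alternative fits, among them the fit without WT replicate 2.

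**Figure D3:**
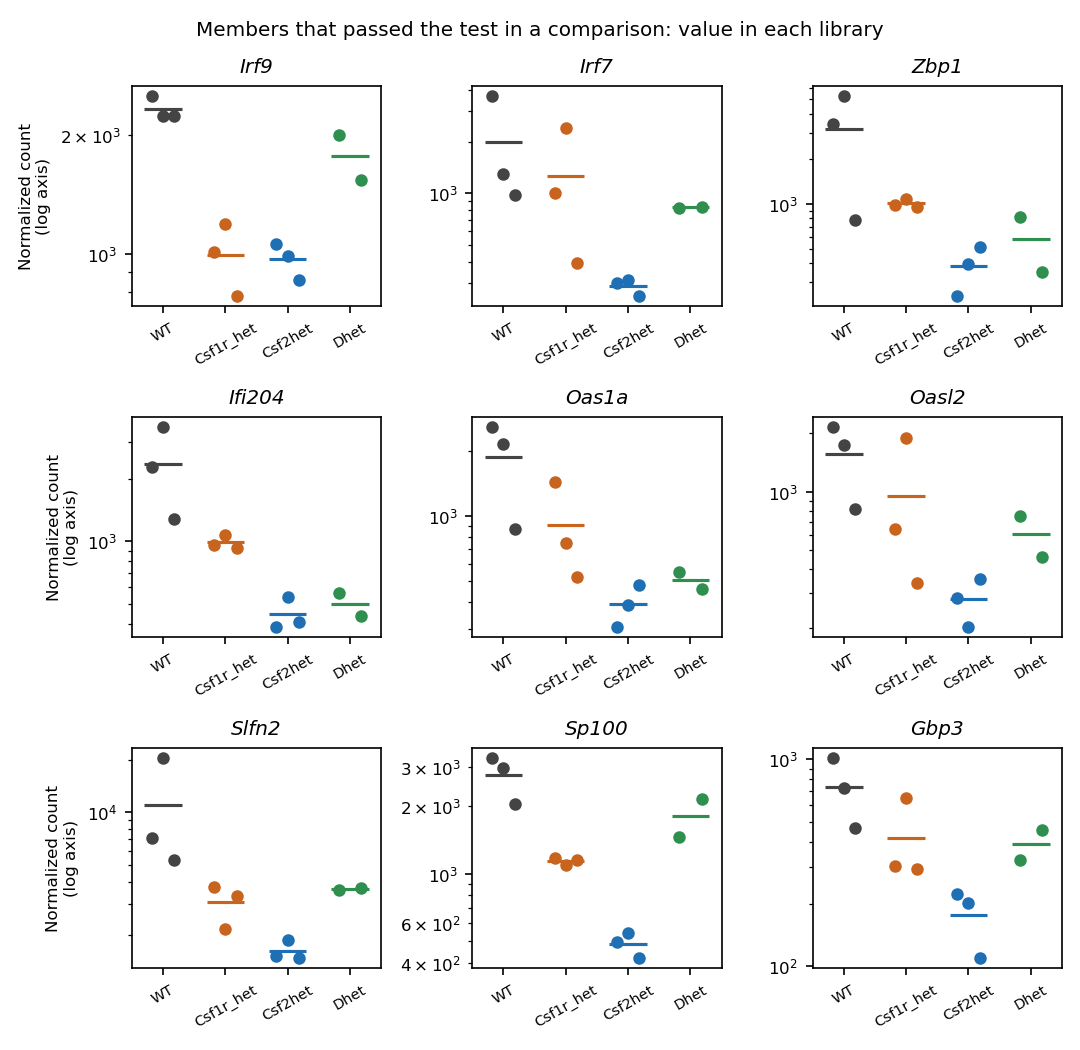
Normalized count (log axis) in each library for the 9 members that passed the test in at least 1 comparison. Points are libraries, in replicate order from left to right within a group, and the short line is the group mean. The 3 Csf2het libraries lie below the 3 WT libraries in every panel, and the Dhet libraries of Irf9 and Sp100 lie above all 6 single heterozygote libraries.

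The remaining effectors did not pass the test in any comparison with WT and did not move as 1 block. Ifitm3, which keeps viruses from fusing with the cell, was at 84322, 531778 and 26305 in WT, 54271, 39512 and 45657 in Csf1r_het, 10859, 10921 and 28706 in Csf2het, and 15851 and 8785 in Dhet. WT replicate 2 was 6.31 times as high as the next library, and the WT normalized counts had an SD larger than their mean. The differences from these widely spread WT libraries, fitted on the log2 scale, were -2.81 ± 0.83 in Csf2het (limma adjusted p = 0.0853) and -3.16 ± 0.93 in Dhet (0.231). Ifi27l2a had the same shape, with 60782 in WT replicate 2 against 2189 to 14312 in the other WT and the Csf1r_het libraries. Isg20, an exonuclease, Mx1, a GTPase, and Bst2, which tethers virus particles, were above WT by sign in both single heterozygote groups. Bst2 was at 1901 to 4031 in WT, 3764 to 5204 in Csf1r_het, 3271 to 4586 in Csf2het, and 2727 and 1540 in Dhet, and its differences from WT were 0.83 ± 0.34, 0.53 ± 0.34 and -0.35 ± 0.38. Rsad2 (viperin) was at 4886 to 15785 in WT and 3033 to 5638 in Csf2het, and its highest value of all libraries was 22807 in Csf1r_het replicate 2. Eif2ak2 (PKR) and Trim30a differed from WT by -0.25 ± 0.43 and -0.42 ± 0.32 in Csf2het.

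Gbp2 and Gbp3 encode guanylate-binding GTPases that attack the vacuoles of intracellular pathogens, and both respond to interferon-gamma as well. Gbp3 (ENSMUSG00000028268.14, chr3:142560026-142573209, plus strand) was at 1015, 728 and 467 normalized counts in WT and 304, 650 and 295 in Csf1r_het. It was at 223, 201.1 and 109 in Csf2het and 325 and 457 in Dhet. Csf2het was the lowest group, with no overlap with any other. The difference was -2.04 ± 0.49 in Csf2het (limma adjusted p = 0.0380), which was lost without WT replicate 1 (0.177), WT replicate 2 (0.0677), any 1 of the Csf2het libraries (0.085 to 0.141), or Csf1r_het replicate 1 or 3 (0.0553 and 0.0566). Gbp2 differed by the same amount (-2.04 ± 0.71) and did not pass the test (0.144), with a Csf1r_het range of 284 to 2018.

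Of the secreted members, Cxcl10, a chemokine that draws T cells, was the only member whose highest library was in Csf2het. It was at 302, 301 and 163 in WT, 771, 19.3 and 334 in Csf1r_het, 255, 767 and 1036 in Csf2het, and 993 and 210 in Dhet. Each heterozygote group spread more widely than WT and enclosed or overlapped it, and the Csf2het difference was 1.25 ± 1.09 (limma adjusted p = 0.623). Lgals3bp, a glycoprotein that binds galectins, differed by -0.15 ± 0.43 in Csf2het. The last members, Xaf1, Rtp4 and Ifi35, were below WT in Csf2het by -1.01 ± 0.61, -0.83 ± 0.49 and -0.62 ± 0.31, without passing the test.

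The heterozygote groups were next compared with each other. No member passed the limma test between Csf1r_het and Csf2het, where 0.0227% of tested genes were lower, or between Dhet and either single heterozygote, where at most 0.0227% of tested genes were higher. By edgeR none passed in these comparisons, and by DESeq2 1 passed in Csf1r_het against Csf2het, 1 in Dhet against Csf2het and 0 in Dhet against Csf1r_het. At an unadjusted p under 0.05, 10 members were higher in Csf1r_het than in Csf2het and none lower, against 2.53% and 1.94% of tested genes. By sign 40 of 43 members were higher in Csf1r_het and 3 lower, where 52.3% of tested genes were lower. The members' median difference was 0.84 on the log2 scale, against -0.03 over all tested genes. All Csf1r_het libraries lay above all Csf2het libraries in 13 members and below them in none, against 5.98% and 6.10% of tested genes.

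Dhet against Csf2het had 31 of 43 members higher by sign and 12 lower, where 48.3% of tested genes were lower. The members' median was 0.54, against 0.03 over all tested genes. At an unadjusted p under 0.05, 5 members were higher and 1 lower (5.09% and 3.10% of tested genes). The 13 members in which both Dhet libraries lay above all Csf2het libraries compare with 16.7% of tested genes, and the 1 member in which they lay below with 12.9%. Dhet against Csf1r_het had 27 of 43 members lower by sign, where 45.5% of tested genes were lower. The members' median was -0.33, against 0.10 over all tested genes. At an unadjusted p under 0.05, 4 members were lower and 2 higher (4.52% and 5.99% of tested genes). Both Dhet libraries lay below all Csf1r_het libraries in 12 members and above them in 3, against 14.4% and 18.5% of tested genes. At an adjusted p under 0.05, 0.00756% of tested genes were higher there. The members' median in this comparison turned to 0.05 without Csf1r_het replicate 2, so its direction rested on that library.

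The interaction asks whether the Dhet libraries differ from what the separate losses would add up to on the log2 scale. In 3 of 43 members the interaction was above 0 at a limma adjusted p under 0.05, against 1.20% of tested genes: Sp100 (3.13 ± 0.45, adjusted p = 0.00851), Irf9 (2.11 ± 0.42, 0.0251) and Slfn2 (2.81 ± 0.64, 0.0427). No member passed below 0, against 0.643% of tested genes. In each of the 3 genes both single heterozygotes were below WT, and Dhet was not as low as the sum of the separate differences. The Sp100 interaction held in all 11 fits with a library left out and was lost with mice of 21 months only (0.136). That of Irf9 held in 4 of the 11, those without WT replicate 2 or 3, Csf1r_het replicate 2 or Dhet replicate 2. That of Slfn2 held in 2, those without WT replicate 2 or 3, and was lost in edgeR (adjusted p = 0.0619). At an unadjusted p under 0.05 it was above 0 in 13 members and below 0 in 1, against 11.1% and 6.96% of tested genes. By sign 34 of the 43 members had an interaction above 0 and 9 below, where 45.8% of tested genes were below 0. The members' median was 1.15, while over all tested genes the median was 0.15. Ifit2 had a value of 3.54 ± 0.93 that did not pass the test (limma adjusted p = 0.0735). Bst2 lay in the opposite direction (-1.71 ± 0.51, 0.107).

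The members also differed in how steady they were within a group. The ratio of the highest to the lowest library had a median over the members of 3.06 in WT, 2.64 in Csf1r_het, 1.93 in Csf2het and 1.47 in Dhet, the last over 2 libraries. In WT it ran from 1.13 in Irf9 to 27.8 in Ifi27l2a. The highest of the 11 libraries was WT replicate 1 in 16 members, WT replicate 2 in 13 and Csf1r_het replicate 2 in 9. WT replicate 1 was highest for Irf9, Irf7, Ddx58, Dhx58, 4 of the 5 Oas genes, Parp9, Dtx3l, Sp100 and Gbp3, among others. WT replicate 2 was highest for Ifitm3, Ifi27l2a, Ifi203, Ifi204, Zbp1, Slfn2 and Parp14, among others. Csf1r_het replicate 2, the library with the most haemoglobin, was highest for Isg15, Rsad2, Isg20, Ifit1, Ifit3b, Mx1, Eif2ak2, Trim30a and Gbp2. WT replicate 3 was highest in none and lowest in 3. The Csf2het libraries were together the lowest in 25 members and the highest in 1. Counts of highest and lowest libraries were not taken over all tested genes. The part of haemoglobin in these values was not tested.

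Some markers of other cells moved with these genes and others did not. Of 12 monocyte markers 9 fell in Csf2het, 2 in Csf1r_het and 2 in Dhet, and their summed normalized count was 108668 to 362873 in WT, 58388 to 78641 in Csf1r_het, 17918 to 24923 in Csf2het, and 76134 and 83417 in Dhet. No monocyte marker was at 0 throughout a group. Among them Plac8 was at 8772 to 80258 in WT and 2789 to 4947 in Csf2het, and Chil3 at 16765 to 40709 and 5475 to 8739. The interaction was above 0 and passed the test in 6 of the 12. The order of the groups in the monocyte sum was WT, then Csf1r_het and Dhet, then Csf2het. WT replicate 2 was the highest library in the monocyte sum (362873) and in the members' median deviation (0.91). WT replicate 1, close to it in that deviation (0.87), had a monocyte sum of 136424. WT replicate 3 had a deviation of 0.14 and a monocyte sum of 108668. Csf1r_het replicate 2 had the highest members' median deviation of its group (0.60) and the lowest monocyte sum of its group (58388). The part of monocyte RNA in the members' values was not tested.

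Of 11 microglia markers 3 rose in Csf2het, and their sum was 105835 to 294277 in WT, 276958 to 326440 in Csf1r_het, 421031 to 570651 in Csf2het, and 368441 and 447460 in Dhet. P2ry12, the microglial ADP receptor, rose in Csf2het (1.55 ± 0.39, limma adjusted p = 0.0464). Neutrophil markers summed to 26596 to 794252 over the libraries and none passed the test in a comparison with WT, although 10 of 10 were above WT by sign in Dhet. Plasmacytoid dendritic cell markers, from a cell type known for making interferon, summed to 5998 to 11418 in WT and 7584 to 8016 in Csf2het. Most of that sum was Irf8 and Tcf4 in some libraries (5625 and 2012 in WT replicate 1), and microglia also express Irf8, so it says little about that cell type. T and NK cell markers summed to 1095 to 5804 in WT and 1322 to 2244 in Csf2het. By sign 10 of 10 were below WT in Csf2het (median -1.15), 6 in Csf1r_het and 7 in Dhet, and none passed the test. The 5 B cell markers were all below WT by sign in each heterozygote group, with a median of -2.14 in Csf2het, -1.27 in Csf1r_het and -0.89 in Dhet, and none passed the test. Their sum was 10963 to 29689 in WT and 6993 to 10382 in Csf2het. Of 6 listed endothelium markers 3 were measured, and none passed the test. By sign 3 of 3 were below WT in Csf2het and in Dhet, with medians of -1.213 and -1.505, and 2 of 3 in Csf1r_het. The endothelium sum was 3043 to 11698 in WT and 2700 to 12802 in Csf1r_het, highest in replicate 2. It was 1582 to 2503 in Csf2het, and 1219 and 1952 in Dhet. The 5 astrocyte markers and the 5 neuron markers were all above WT by sign in each heterozygote group, with medians of 1.46 and 1.01 in Csf2het, and none passed the test. Of the 5 border macrophage markers measured, F13a1, which monocytes also express, fell in Csf2het (-3.51 ± 0.58, limma adjusted p = 0.00547). By sign 3 of the 5 were above WT in Csf2het and 2 below, with a median of 0.60. In Csf1r_het 4 were above WT and 1 below (median 0.86), and in Dhet 2 above and 3 below (-0.54). Mrc1, Cd163 and Lyve1 were not analysed here. Of 17 immediate early genes, which respond to dissociation, 2 fell in Csf1r_het, 4 in Csf2het and 1 in Dhet, and their sum was 38217 to 66994 in WT and 16026 to 28495 in Csf2het. The part of these lists in the members' values was not tested either.

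**Figure D4:**
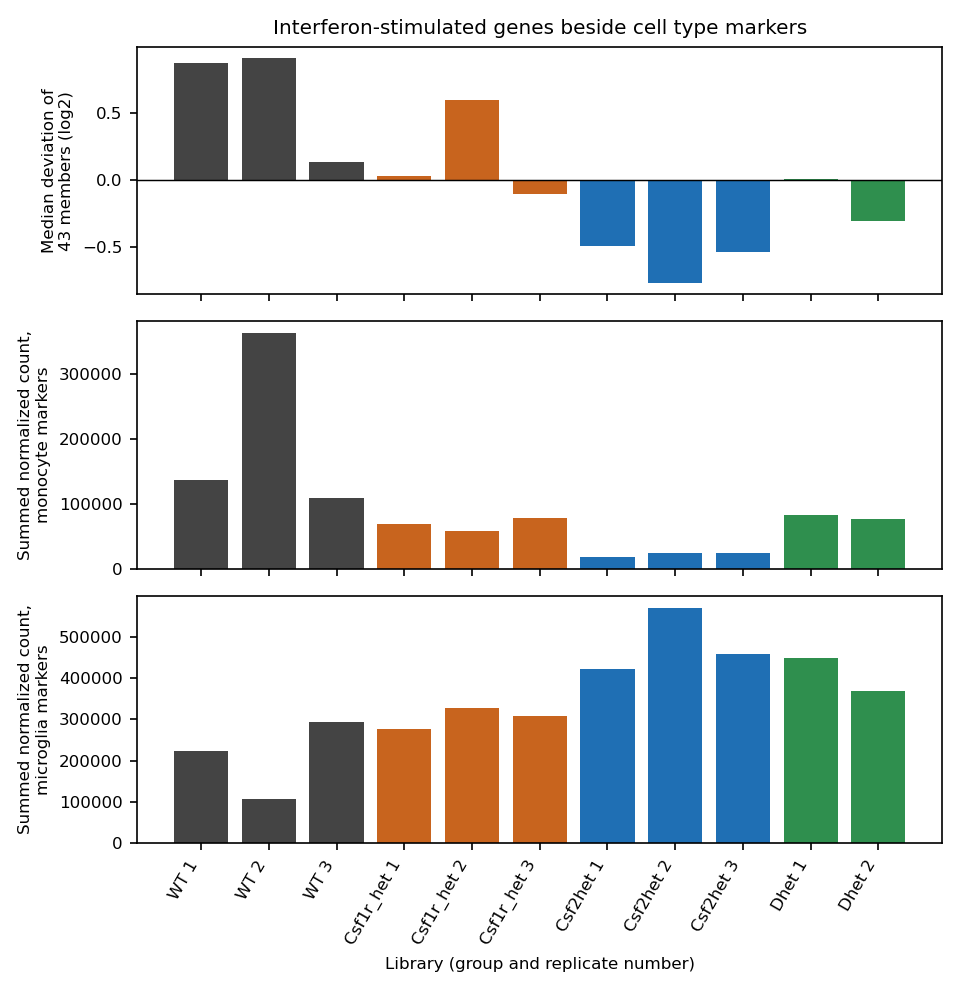
Per library, the median deviation of the 43 members from each gene's mean over the 11 libraries (top, log2), the summed normalized count of 12 monocyte markers (middle) and that of 11 microglia markers (bottom). The top and middle panels are highest in WT replicate 2, at 0.91 and 362873, and lowest in Csf2het libraries, while the bottom panel is lowest in WT replicate 2 at 105835. WT replicate 1 is close to WT replicate 2 in the top panel (0.87) but not in the middle panel (136424). Within Csf1r_het, replicate 2 is highest in the top panel (0.60) and lowest in the middle panel (58388).

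Upstream of the members, 6 of 12 listed interferons and receptors were in the table, and none of them passed the test against WT. Ifnar1, a chain of the type I interferon receptor, was at 990 to 1742 in WT, 437 to 692 in Csf1r_het, 630 to 825 in Csf2het, and 1154 and 1432 in Dhet. The single heterozygotes lay wholly below WT and Dhet within it, and the interaction passed the test (2.20 ± 0.50, limma adjusted p = 0.0425). Ifnar2, the other chain, was at 4394 to 6278 in WT and 4444 to 6180 in Csf2het.

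Among the 13 kinases, factors and inhibitors of the JAK-STAT pathway, 2 fell in Csf1r_het and in Csf2het and none in Dhet. They were Stat3, a factor shared with many cytokines, and Ptpn6, the phosphatase SHP-1, which damps receptor signalling. Stat3 was at 2949 to 5214 in WT, 806 to 1224 in Csf1r_het, 1108 to 1353 in Csf2het, and 1445 and 2059 in Dhet. Every heterozygote library was below WT, and the difference was -1.94 ± 0.32 in Csf1r_het (limma adjusted p = 0.0178) and -1.60 ± 0.32 in Csf2het (0.0155). Ptpn6 differed by -1.62 ± 0.27 (0.0191) and -1.66 ± 0.27 (0.00501), and both genes had an interaction above 0 (2.48 ± 0.48 and 2.29 ± 0.41).

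Among 15 genes that sense nucleic acid or drive interferon production, Samhd1 fell in Csf2het and Dhet and Myd88 in Csf1r_het. Samhd1, which depletes nucleotides and restrains interferon induction, was at 6162 to 14310 in WT, 3480 to 4235 in Csf1r_het, 1486 to 1992 in Csf2het, and 2241 and 3031 in Dhet. No heterozygote library overlapped WT, and the difference was -2.58 ± 0.33 in Csf2het (limma adjusted p = 0.00115) and -1.995 ± 0.37 in Dhet (0.0338). Myd88, the adaptor of Toll-like receptors, fell in Csf1r_het (-1.95 ± 0.39, limma adjusted p = 0.0367), with an interaction of 2.67 ± 0.59 (0.0398).

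Of the 16 genes in the list for the interferon-gamma response, none passed the test in any comparison with WT, and 16 of 16 were below WT by sign in Csf2het, with a median of -1.25. The lowest p values there were those of Tap1, a peptide transporter (-1.88 ± 0.51, limma adjusted p = 0.0625), and Ciita, the regulator of MHC class II genes (-3.61 ± 1.04, 0.0802). Ciita was at 227 to 588 in WT, 197 to 492 in Csf1r_het and 27.1 to 36.8 in Csf2het, and its Dhet libraries were at 9.01 and 375.

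Within the list, members with and without a match to the promoter element were both among those that fell in Csf2het. The search took exact letters only, so the lack of a match does not mean that a gene lacks the element. In the 14 members that held a match the median difference was -0.84 on the log2 scale and 2 of them fell. The 19 with a window and no match had a median of -1.37 and 5 fell, and the 10 without a window had a median of -1.33 and 2 fell. These are descriptions of 250 bases per gene, and the members are not independent of each other, since Ifit3 and Ifit3b share their sequence.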

How the data were processed

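RNA-seq of Tmem119+ cells gave 1 table of 11 libraries. Per the submitters' processing notes, kallisto 0.43.1, DESeq2 and the build mm10 were used. The sources used here do not state a strand setting. The authors deposited the values as counts divided by size factors, a normalized signal per gene. Every value came out as a whole count (100% within 0.02), so the counts behind each value could be recovered. They are called reads here, and whether they were rounded from estimates is not stated.

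Values were compared as log2(normalized count + 1) with limma 3.58.1 (R 4.3.3, trended prior), in 1 fit of 4 groups over the 13223 genes with a mean of at least 10 (1516 left out). P-values were adjusted by Benjamini-Hochberg over all tested genes in each comparison, at a threshold of 0.05, and fold changes understate the change of low genes. Alternatives were edgeR 4.0.16 and DESeq2 1.42.0 on the recovered reads (13703 genes in edgeR), other pseudocounts, filters and centring, and fits without a library. The scripts were tested on simulated data.

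Members, gene lists and tests were chosen with earlier results of these data known. Every member may be named. Library values are given for members that passed a test, for Stat2, Irf9 and Irf7, and for members that differ from the rest. Pathway genes named are up to 4 that passed or the 2 with the lowest p, and marker genes the 2 with the highest mean, except for genes that are not reported here. Promoter sequences came from RefSeq, coordinates of genes from the deposited table, which matched GENCODE for all 43 members.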

Additional observations from a re-analysis of the deposited data

Results flagged for a closer look

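For 3 members the effect of losing a Csf2 copy differed between mice with 2 and with 1 working copies of Csf1r, by the interaction term of the limma fit over all genes. The interaction was 2.11 on the log2 scale for Irf9, 3.13 for Sp100 and 2.81 for Slfn2. In each, the single heterozygotes were below WT and Dhet was higher than the separate losses add up to. Of the 12 monocyte markers, 6 had an interaction above 0 that passed the test, and the part of monocyte RNA in these 3 values was not tested. Dhet rests on 2 libraries, of which replicate 2 differs from all others in sex-linked transcripts. Without it the value was 2.79 for Slfn2 (limma adjusted p = 0.101), and the Irf9 and Sp100 calls held. Over all 11 fits with a library left out, the call was lost in 7 for Irf9, 9 for Slfn2 and 0 for Sp100. With mice of 21 months only all 3 calls were lost (limma adjusted p = 0.136 for Irf9 and Sp100 and 0.304 for Slfn2).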

How the results depend on the processing

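Each result was recomputed under 21 alternatives. Over all members with a call no direction changed: 190 of the recomputed values kept their side of the threshold and 104 lost it. In Csf2het against WT, members called numbered 18 by DESeq2, 5 in a fit of the compared groups alone and 4 with mice of 21 months only, and all genes called 1232, 259 and 250. With WT replicate 2 and Csf1r_het replicate 2 both removed (the fit meant by "without both libraries" in the rest of the paragraph), all genes called were 944. In Csf1r_het against WT, members called numbered 0 with a pseudocount of 5, by edgeR, with median centring, with the compared groups alone and at 21 months only, 5 by DESeq2 and 2 without both libraries, and all genes called 100 by edgeR, 825 by DESeq2, 0 with the compared groups alone or at 21 months, and 570 without both libraries. In Dhet against WT, members called numbered 0 by edgeR, with median centring, with the compared groups alone, at 21 months and without both libraries, and 5 by DESeq2, and all genes called 26 by edgeR, 357 by DESeq2, 0 with the compared groups alone and 132 at 21 months. In Dhet against Csf1r_het, where limma called 1 gene, all genes called numbered 3 with a pseudocount of 5, 2 by edgeR, 115 by DESeq2, 0 with the compared groups alone or at 21 months and 8 without both libraries, and the members' median was 0.14 at 21 months. In Dhet against Csf2het (3 genes), they numbered 6 with a pseudocount of 5, 183 by DESeq2, 0 with the compared groups alone, 53 at 21 months and 63 without both libraries, with 1 member called by DESeq2 and 1 without both libraries. In Csf1r_het against Csf2het (3 genes), they numbered 61 by DESeq2, 0 at 21 months and 8 without both libraries, with 1 member by DESeq2. For the interaction (244 genes), they numbered 986 by DESeq2, 0 at 21 months and 1292 without both libraries, with 0 members at 21 months and 10 without both libraries. The cause of these differences was not tested.

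Leaving out 1 library at a time, members called ranged from 3 to 12 in Csf2het, 0 to 1 in Csf1r_het, 0 to 3 in Dhet and 1 to 4 for the interaction. All genes called ranged from 172 to 676, 0 to 439, 2 to 173 and 47 to 896 in the same order, from 0 to 121 in Dhet against Csf1r_het, 0 to 85 in Dhet against Csf2het and 0 to 5 in Csf1r_het against Csf2het. The members' median ranged from -1.03 to -0.36 in Csf1r_het and from -1.07 to -0.48 in Dhet, lowest without WT replicate 3. Where a group was left with 1 library, that library is assumed to vary like the other groups.

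The labels number replicates in each group. With the replicate number as a block, members called numbered 5 in Csf2het and 0 in Csf1r_het, Dhet and the interaction, and all genes called 256 in Csf2het, 28 in Csf1r_het, 14 for the interaction and 0 in Dhet against Csf1r_het, Dhet against Csf2het and Csf1r_het against Csf2het. Same-numbered libraries did not deviate together in any of 15 pairs (correlations from -0.214 to 0.0616), and 0 of 11 libraries correlated best with its own number, so nothing shows that the numbers pair the samples. Deviations within groups this small offset each other, so the check cannot exclude pairing either.

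The smallest groups hold 2 or 3 libraries, and depth limits the thinnest members: the lowest library of Oasl1 held 1 read and that of Oas2 held 2.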
